A study of Homo sapiens with 4 samples.

Results

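The adhesion G protein-coupled receptors of the human medulloblastoma line DAOY were followed under enforced expression of ZNF521 and under activation of the SHH pathway. Members were the genes whose symbol is ADGR, 1 subfamily letter and 1 digit, and 27 of the 20363 genes in the table of raw counts met this rule. Of these, 20 had at least 10 counts in a library and are called expressed, and 7 did not. RNA came from 4 unreplicated libraries, namely ZNF521 cells with SAG, ZNF521 cells with DMSO, CTL cells with SAG and CTL cells with DMSO. SAG is an agonist of SMO, the transducer of the SHH pathway, and DMSO is its vehicle. ZNF521, a zinc finger transcription co-factor, was expressed from the lentiviral vector FUIGW, and by the study's methods transduced cells were sorted for the EGFP of the vector, after which most but not all were positive. For the CTL cells the sources differ: the study describes CTL cells of its other DAOY assays as carrying the vector FUIGW without ZNF521, while the design text of the series calls the sequenced controls WT. The study gives a SAG dose and time for its other DAOY assays but does not repeat them for the sequenced cells.

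Adhesion receptors join a long extracellular part, built of domains that bind matrix or other cells, to a bundle of membrane-spanning helices that couples to G proteins. Most of them cleave themselves next to the first helix, and the new end of the membrane-bound part can act as a tethered agonist once the extracellular part is pulled away. In the brain, latrophilins (ADGRL1 to ADGRL3) and BAI receptors (ADGRB) organize synapses. ADGRG1 and ADGRG6 bind collagens, the former taking part in cortical development and the latter in Schwann cell myelination.

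Total counts ran from 12294833 to 16314685 per library. ZNF521 itself had 2072 and 2013 normalized counts in ZNF521 cells with SAG and with DMSO, against 751 and 714 in CTL cells treated with SAG and with DMSO. Normalized counts are counts that the authors divided by 1 size factor per library. The CTL library with DMSO stood apart: its log2 deviations from the gene means had an SD of 0.273 over the 9161 genes that averaged 200 normalized counts or more, against 0.126 to 0.143 in the other 3 libraries. Values of called receptors, and of some of their called partners, are also given with this library left out, in a fit with 1 factor only. There the other factor is mixed into the fold change, so the shift does not give the weight of the library alone. Of 12 markers of granule neuron progenitors and SHH medulloblastoma, 9 could be tested, among them ZIC1 and PAX6, while ATOH1 had 1 count in each library and BARHL1 0 to 2 counts. In bulk RNA, fewer cells of a type and less RNA per cell cannot be told apart.

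The receptors differed far more from each other than any of them did between conditions. Per kilobase of transcript and per 1000000 counts, the mean level over the 4 libraries was 20.4 for ADGRL2, 19.3 for ADGRE1, 15.3 for ADGRL1, 11.9 for ADGRE5 and 9.33 for ADGRB2. These 5 followed each other with overlapping ranges, and the lowest library of ADGRB2 (7.81) was above the highest of the next receptor, ADGRA3 (7.71). ADGRA3 (mean 7.01) and ADGRA2 (5.72) overlapped, while ADGRD1 (4.47) and ADGRV1 (2.53) each stood clear of their neighbours in this order. The other 11 expressed receptors lay between a mean of 1.08 for ADGRG1 and 0.143 for both ADGRF3 and ADGRL3, each overlapping the next. All ADGRL receptors, all BAI receptors, both ADGRA receptors, ADGRD1 and ADGRV1 were expressed, as were 3 of 4 ADGRE, 3 of 5 ADGRF and 3 of 7 ADGRG receptors. The 7 that were not expressed are ADGRE3, ADGRF2, ADGRF4, ADGRG3, ADGRG4, ADGRG5 and ADGRG7, with 0 to 6 raw counts in each library, and a count of 0 allows up to 3. Of these, ADGRF2 is listed by GENCODE as a transcribed unitary pseudogene.

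**Figure D1:**
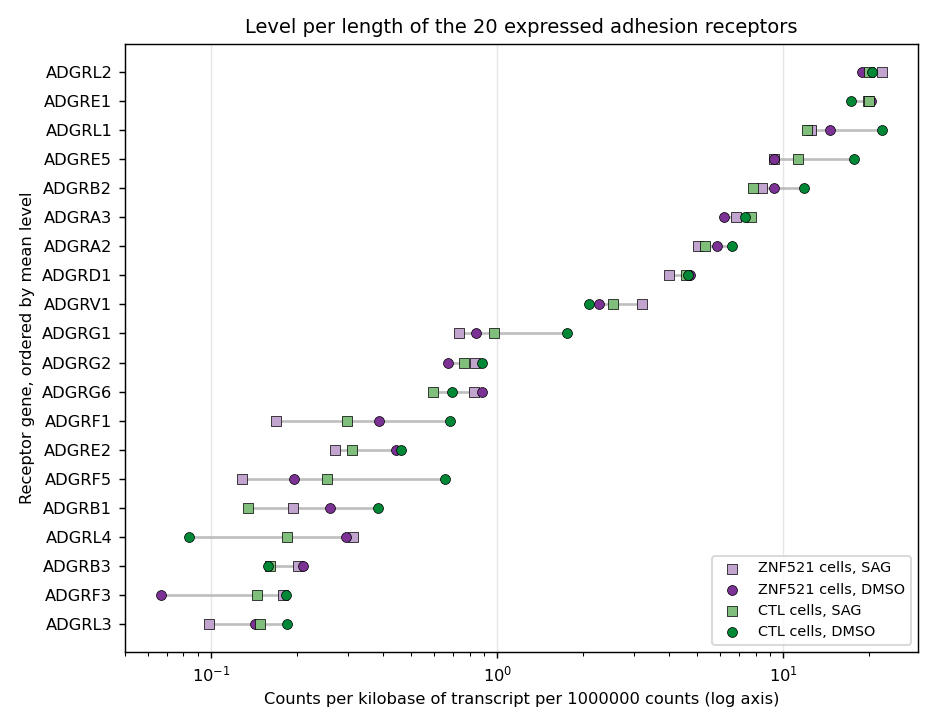
Level of the 20 expressed adhesion receptors in counts per kilobase of transcript per 1000000 counts, on a log axis, with 1 point for each of the 4 libraries and a line over their range. ADGRL2 and ADGRE1 are highest, at means of 20.4 and 19.3, and the green circle of CTL cells with DMSO is the highest point for 12 of the 20 receptors.

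All members together took 57.6 and 56.5 of every 100000 counts in ZNF521 cells with SAG and with DMSO, against 55.6 and 68.3 in CTL cells treated with SAG and with DMSO. The CTL library with DMSO was thus the highest of the 4, and it was the highest for 12 of the 20 receptors, where this holds for 34.5% of all 14970 tested genes. It was the lowest for 4 receptors, against 37.5% of all tested genes. The ZNF521 and SAG comparisons both use this library.

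Enforced ZNF521 expression was compared with CTL by edgeR's quasi-likelihood F-test, with the treatment as block and p-values adjusted by Benjamini-Hochberg over all 14970 tested genes. None of the 20 receptors passed an adjusted p of 0.05, in either direction, and of all tested genes 0.00668% passed as higher (ZNF521 itself) and 0% as lower. At the nominal threshold, an unadjusted p up to 0.05 as the study used it, ADGRE5, ADGRF1, ADGRF5 and ADGRG1 were lower in ZNF521 cells (4 of 20, against 3.11% of all tested genes), and ADGRL4 was higher (1 of 20, against 2.36%). DESeq2 gave 1 receptor at the nominal threshold, ADGRE5, and limma gave 6, and neither gave any at an adjusted p of 0.05. Over the 20 receptors the median log2 fold change was -0.13, beside -0.003 over all tested genes, and 14 were fitted as lower, where 50.6% of all tested genes were. Both ZNF521 libraries were below both CTL libraries for ADGRA3, ADGRE5, ADGRF5, ADGRG1 and ADGRL3 (5 of 20, against 13% of all tested genes), and above them for ADGRB3, ADGRG6 and ADGRL4 (3 of 20, against 13.3%). The counts changed when single libraries were left out, in fits without the block. Without the CTL library with DMSO, 0 receptors passed the nominal threshold and the median was 0.016. The number was 0 without the ZNF521 library with SAG and 2 without that with DMSO. When the SAG library of CTL cells was left out, 8 receptors passed the nominal threshold and 5 the adjusted one, all of these 5 lower (ADGRE5, ADGRF1, ADGRF5, ADGRG1 and ADGRL1).

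SAG was compared with DMSO in the same fit, with the kind of cells as block. Again none of the 20 receptors passed an adjusted p of 0.05 from edgeR, where 0.0401% of all tested genes passed as higher and 0% as lower. At the nominal threshold, ADGRB1, ADGRF1, ADGRF5 and ADGRL1 were lower with SAG (4 of 20, against 5.12% of all tested genes) and ADGRV1 was higher (1 of 20, against 6.21%). DESeq2 gave 1 receptor at this threshold, ADGRL1, and limma 4, and neither gave any at an adjusted p of 0.05. The median log2 fold change was -0.19, beside 0.001 over all tested genes, and 13 receptors were fitted as lower, where 49.9% of all tested genes were. Both SAG libraries were below both DMSO libraries for ADGRA2, ADGRB1, ADGRB2, ADGRE2, ADGRF1 and ADGRL1 (6 of 20, against 22.7% of all tested genes) and above them for ADGRV1 alone (1 of 20, against 25.4%). Without the ZNF521 library with DMSO, 11 receptors passed the nominal threshold and 9 the adjusted one, 8 of these lower and ADGRV1 higher. The nominal threshold was passed by 1 without the ZNF521 library with SAG, by 2 without the CTL library with DMSO and by 3 without that with SAG, and 0 passed the adjusted one in these fits.

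**Figure D2:**
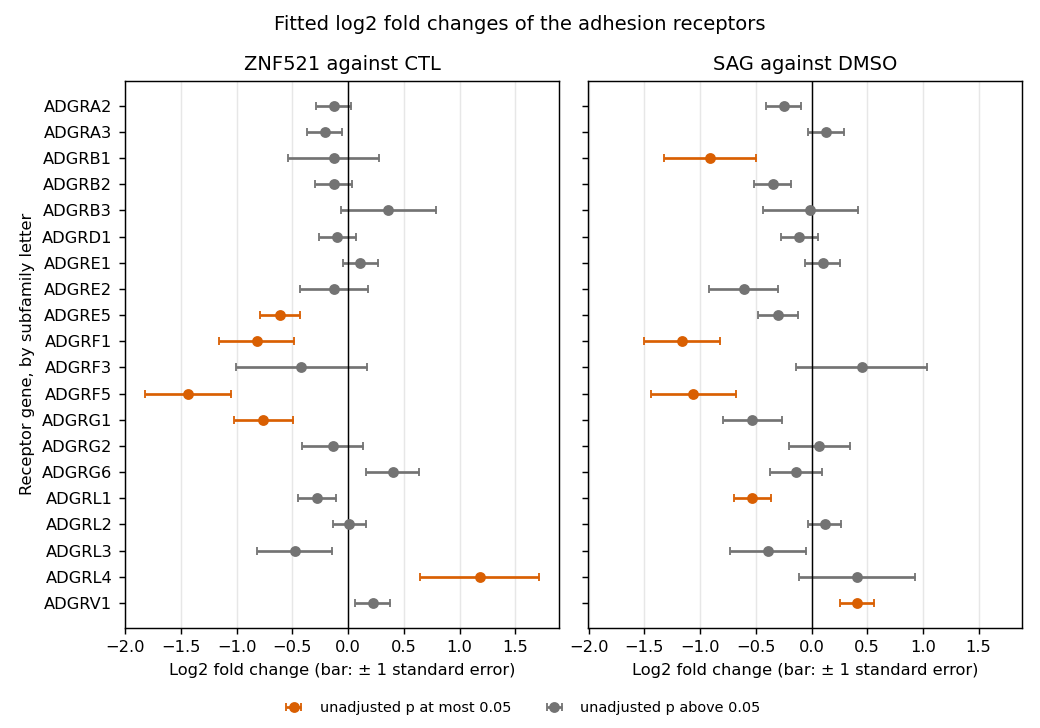
Log2 fold changes of the 20 expressed adhesion receptors from the edgeR fit, for ZNF521 against CTL (left) and SAG against DMSO (right), with bars of 1 standard error and 4 libraries in each fit. ADGRF5 has the lowest value for ZNF521 (-1.44) and ADGRF1 for SAG (-1.16), and the orange points are those with an unadjusted p of at most 0.05.

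In single pairs of libraries that differ in 1 factor, some receptors differed 1.5-fold or more. The share that was lower was above that of all tested genes in each pair. Between ZNF521 and CTL cells in DMSO, ADGRE5, ADGRF1, ADGRF3, ADGRF5 and ADGRG1 were lower by this much (5 of 20, against 8.76% of all tested genes) and ADGRL4 was higher (1 of 20, against 6.89%). In SAG, ADGRF1, ADGRF5 and ADGRL3 were lower (3 of 20, against 2.87%) and ADGRL4 again higher (1 of 20, against 3.37%). Between SAG and DMSO among ZNF521 cells, ADGRE2, ADGRF1 and ADGRF5 were lower (3 of 20, against 3.67%) and ADGRF3 higher (1 of 20, against 2.96%). Among CTL cells, ADGRB1, ADGRE5, ADGRF1, ADGRF5, ADGRG1 and ADGRL1 were lower (6 of 20, against 10.8%) and ADGRL4 higher (1 of 20, against 8.68%). ADGRF1 and ADGRF5 were thus lower by this much in each of the 4 pairs, which share libraries with each other. Exact intervals for counting error included 1 for each receptor named for ZNF521 in SAG. For SAG among ZNF521 cells they did so for ADGRE2, ADGRF3 and ADGRF5 (0.28 to 1.5). In DMSO this held for ADGRF3 alone, and among CTL cells for ADGRL4 alone. The intervals of the other named ratios left out 1. The shares of all tested genes were not matched for count level.

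Of the ADGRF receptors, ADGRF5 and ADGRF1 held the lowest fold changes of all 20 in both comparisons. ADGRF5, which controls the surfactant pool of the lung, had 10.1 and 15.4 normalized counts in ZNF521 cells with SAG and with DMSO, against 20.3 and 51.3 in CTL cells treated with SAG and with DMSO, from raw counts of 12, 15, 18 and 51. Both ZNF521 libraries were below both CTL libraries, and the CTL library with DMSO was far above the other 3. Enforced ZNF521 gave a log2 fold change of -1.44 (standard error, SE, 0.386, adjusted p = 0.679 from edgeR), and SAG one of -1.06 (SE 0.384, adjusted p = 0.391 from edgeR). In DMSO, ZNF521 cells had 0.301 times the value of CTL cells (exact 95% interval 0.157 to 0.544, for counting error only), and in SAG 0.499 times (0.219 to 1.09). With the CTL library with DMSO left out, ADGRF5 was at -0.68 for ZNF521 and at -0.09 for SAG, and neither value passed the nominal threshold. The same held without the ZNF521 library with SAG (-1.24 and -0.72). In the fit without a filter on low counts the adjusted p of ADGRF5 for ZNF521 was 0.0486.

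ADGRF1, a receptor of the lipid synaptamide in neurons, lies next to ADGRF5. It had 12.7 and 28.8 normalized counts in ZNF521 cells with SAG and with DMSO, against 22.6 and 50.3 in CTL cells treated with SAG and with DMSO, from raw counts of 15, 28, 20 and 50. Both SAG libraries were below both DMSO libraries, and within each treatment the ZNF521 library was the lower one. SAG-treated cells had 0.439 times the value of DMSO-treated cells among ZNF521 cells (exact 95% interval 0.218 to 0.851) and 0.449 times among CTL cells (0.253 to 0.767), so that both intervals left out 1. For SAG the log2 fold change was -1.16 (SE 0.341, adjusted p = 0.391 from edgeR), and with ZNF521 -0.82 (SE 0.337, adjusted p = 0.907 from edgeR). These values were -0.76 and -0.16 without the CTL library with DMSO, and -0.81 and -0.36 when the SAG library of ZNF521 cells was left out, and none of them passed the nominal threshold. ADGRF3, an orphan receptor, had 4 to 13 raw counts per library, and the exact intervals of its 4 pair ratios all included 1.

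ADGRF5 (chr6:46852522-46954943, hg38, minus strand) and ADGRF1 (chr6:46997708-47042350, minus strand) follow each other on chromosome 6, and the CTL library with DMSO was the highest and the ZNF521 library with SAG the lowest for both. The unexpressed ADGRF4 and ADGRF2 lie further along, on the plus strand. Of 6 tested genes within 500 kb of ADGRF1, CD2AP went the other way. It was higher at the nominal threshold for ZNF521 and for SAG (1 of 6 in each, against 2.36% and 6.21% of all tested genes). For ADGRF5 and ADGRF1, which had the lowest fold changes of the family, the 250 bases upstream of the RefSeq starts (GRCh38.p14) are shown. Beside them stands that of ADGRV1, the receptor that was higher with SAG. They are written 5′ to 3′ on the strand of the gene, with each CG dinucleotide in capitals. The RefSeq start of ADGRV1 lies inside the span that GENCODE gives the gene.
ADGRF5, chr6:46954940-46955189, minus strand: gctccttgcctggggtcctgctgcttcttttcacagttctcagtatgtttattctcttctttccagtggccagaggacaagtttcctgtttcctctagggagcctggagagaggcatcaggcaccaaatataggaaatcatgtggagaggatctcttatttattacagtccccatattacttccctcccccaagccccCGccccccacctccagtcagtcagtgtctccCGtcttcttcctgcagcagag
ADGRF1, chr6:47042333-47042582, minus strand: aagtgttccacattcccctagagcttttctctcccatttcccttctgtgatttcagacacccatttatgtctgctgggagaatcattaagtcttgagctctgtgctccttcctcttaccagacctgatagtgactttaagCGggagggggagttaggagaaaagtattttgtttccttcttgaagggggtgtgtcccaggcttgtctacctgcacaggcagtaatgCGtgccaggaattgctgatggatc
ADGRV1, chr5:90558547-90558796, plus strand: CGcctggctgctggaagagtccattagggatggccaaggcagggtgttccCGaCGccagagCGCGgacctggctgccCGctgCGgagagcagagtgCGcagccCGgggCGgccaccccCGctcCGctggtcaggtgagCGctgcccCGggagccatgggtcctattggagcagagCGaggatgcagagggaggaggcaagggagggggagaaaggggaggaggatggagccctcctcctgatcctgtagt
The stretches of ADGRF5 and ADGRF1 hold 2 CG dinucleotides each, at a GC content of 51.6% and 47.6%, and that of ADGRV1 holds 15, at 68.4%. Each is the first window listed for its gene. Another window listed for ADGRF5 (chr6:46921939-46922188) holds 6 CG dinucleotides, at 45.6%. Over the first listed window of 27305 genes the median was 11, and 23.6% of these windows held at most 2. The GLI binding sequence GACCACCCA, searched on both strands with 250 bases before and 50 after the start, was in 0 of the 32 windows of the 17 members that had one, and in 83 of all 35116 windows (0.236%).

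The latrophilins (ADGRL1 to ADGRL3), receptors of teneurins and FLRT proteins that hold synapses together, included the receptors with the most counts. ADGRL1 had 1350 and 1575 normalized counts in ZNF521 cells with SAG and with DMSO, against 1308 and 2337 in CTL cells treated with SAG and with DMSO. Both SAG libraries were below both DMSO libraries, by a small margin among ZNF521 cells and a large one among CTL cells. With SAG, ZNF521 cells had 0.857 times the value with DMSO (exact 95% interval 0.798 to 0.92) and CTL cells 0.56 times (0.521 to 0.601). ADGRL1 had a log2 fold change with SAG of -0.53 (SE 0.169, adjusted p = 0.391 from edgeR). It was -0.25 without the CTL library with DMSO (adjusted p = 0.219 from edgeR) and -0.54 without that with SAG (adjusted p = 0.999 from edgeR), where it lost the nominal threshold, as it did with limma (-0.53, adjusted p = 0.616). For ZNF521 the value was -0.28 (adjusted p = 0.957 from edgeR), and without the CTL library with DMSO it was 0.16. Of 22 tested genes within 500 kb of ADGRL1, CC2D1A, PRKACA and ZSWIM4 were also lower with SAG at the nominal threshold (3 of 22, against 5.12% of all tested genes).

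ADGRL2 had the highest mean of the receptors over the 4 libraries, although ADGRL1 was above it in the CTL library with DMSO. It lay within narrow bounds, with 2267 and 1923 normalized counts in ZNF521 cells with SAG and with DMSO, against 2057 and 2066 in CTL cells treated with SAG and with DMSO. Its log2 fold changes were 0.01 for ZNF521 and 0.12 for SAG, each with an SE of 0.148. ADGRL3 had 18.6 and 26.8 normalized counts in ZNF521 cells with SAG and with DMSO, against 28.2 and 34.2 in CTL cells treated with SAG and with DMSO. The ZNF521 libraries were below the CTL libraries, but the log2 fold change of -0.48 had an SE of 0.338 (adjusted p = 0.967 from edgeR), and limma alone placed it past the nominal threshold.

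ADGRL4, a receptor of blood vessel endothelium, was the only member above the nominal threshold as higher in ZNF521 cells. Its raw counts were 18 and 14 in ZNF521 cells with SAG and with DMSO, against 8 and 4 in CTL cells treated with SAG and with DMSO, or 15.2 and 14.4 against 9.02 and 4.02 normalized counts. The groups did not overlap, at a depth where a single read counts for much. The log2 fold change was 1.18 (SE 0.536, adjusted p = 0.91 from edgeR), and it lost the nominal threshold without either ZNF521 library (1.22 and 1.14) and without the CTL library with DMSO (0.71). In DMSO the ratio of ZNF521 to CTL cells was 3.58 (exact 95% interval 1.13 to 14.9), and in SAG 1.68 (0.696 to 4.47). Of 6 endothelial markers 4 could be tested, and the summed normalized count of all 6 was 192 and 154 in ZNF521 cells with SAG and with DMSO, against 184 and 186 in CTL cells treated with SAG and with DMSO. The defining marker CDH5 had 6 to 12 raw counts, KDR 1 to 4, VWF 14 to 16, CLDN5 2 to 16 and PECAM1 49 to 58. TEK had 135 and 62 raw counts in ZNF521 cells with SAG and with DMSO, against 82 and 89 in CTL cells treated with SAG and with DMSO. The part of endothelial cells in the value of ADGRL4 was not tested.

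**Figure D3:**
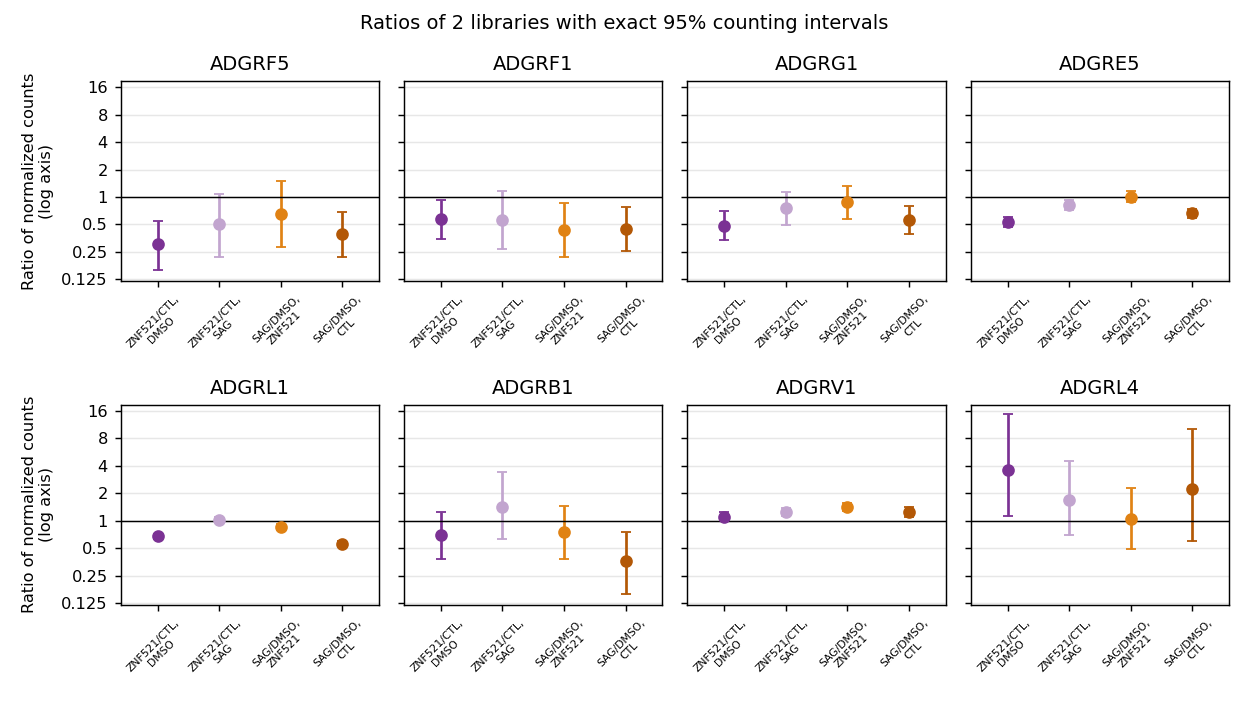
Ratios of normalized counts between pairs of libraries that differ in 1 factor, for 8 adhesion receptors on a log axis, with points for the ratio and bars for the exact 95% counting interval. The ratio of ADGRF1 with SAG lies below 1 with its interval among both ZNF521 cells (0.439) and CTL cells (0.449), and that of ADGRV1 with SAG above 1 among both (1.41 and 1.25), whereas for ADGRE5 and ADGRG1 the lowest ratio is that of ZNF521 to CTL cells in DMSO (0.535 and 0.486).

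The ADGRE receptors carry EGF-like domains and are best known from blood cells. ADGRE5 (CD97), which binds CD55 and is also made by many other cells, had 408 and 406 normalized counts in ZNF521 cells with SAG and with DMSO, against 501 and 759.9 in CTL cells treated with SAG and with DMSO. The ZNF521 libraries were alike and below both CTL libraries, which differed between themselves. In DMSO the ratio of ZNF521 to CTL cells was 0.535 (exact 95% interval 0.472 to 0.605) and in SAG 0.816 (0.715 to 0.93), so that both intervals left out 1. For ZNF521 the log2 fold change was -0.61 (SE 0.18, adjusted p = 0.732 from edgeR). ADGRE5 was the only receptor that DESeq2 placed past the nominal threshold for ZNF521, and it lost this threshold in edgeR without the ZNF521 library with DMSO (-0.63), that with SAG (-0.65) or the CTL library with DMSO (-0.29). CD55, its ligand, had 286 and 279 normalized counts in ZNF521 cells with SAG and with DMSO, against 209.8 and 211 in CTL cells treated with SAG and with DMSO. Its log2 fold change with ZNF521 was 0.41 (SE 0.169, adjusted p = 0.907 from edgeR), and it lost the nominal threshold without either ZNF521 library (0.44 and 0.39).

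ADGRE1, the human counterpart of the mouse macrophage marker F4/80, had 848 and 870.5 normalized counts in ZNF521 cells with SAG and with DMSO, against 858 and 729 in CTL cells treated with SAG and with DMSO. Its log2 fold changes were 0.11 and 0.10 for ZNF521 and SAG (SE 0.155 for both). Most markers of myeloid cells were near 0. Of 7 such markers, CSF1R and TYROBP could be tested, while PTPRC had 1 to 4 raw counts and SPI1 0 to 2 in each library, and the summed normalized count of the 7 was 51.5 and 92.6 in ZNF521 cells with SAG and with DMSO, against 103.8 and 86.5 in CTL cells treated with SAG and with DMSO. CSF1R had 19 and 30 raw counts in ZNF521 cells with SAG and with DMSO, against 32 and 56 in CTL cells treated with SAG and with DMSO. TYROBP had 25 and 42 raw counts in ZNF521 cells with SAG and with DMSO, against 44 and 7 in CTL cells treated with SAG and with DMSO, so that the CTL library with DMSO was the highest for CSF1R and the lowest for TYROBP. The part of such cells in the values of the ADGRE receptors was not tested. ADGRE2, which binds chondroitin sulfate, had 25.3 to 42.2 normalized counts, with both SAG libraries below both DMSO libraries and a log2 fold change of -0.61 (SE 0.306, adjusted p = 0.461 from edgeR). Its exons share 1355 bases with ZNF333 on the other strand and its EGF-like domains closely resemble those of ADGRE5, so that its counts may hold reads of either gene, and the strand setting of the counting is not given in the sources used here.

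Among the ADGRG receptors, ADGRG1 (GPR56), which binds collagen III and TGM2 and signals through GNA12 and GNA13, had 43.0 and 49.4 normalized counts in ZNF521 cells with SAG and with DMSO, against 57.5 and 101.5 in CTL cells treated with SAG and with DMSO. The CTL library with DMSO was far above the other 3. The log2 fold change with ZNF521 was -0.76 (SE 0.264, adjusted p = 0.888 from edgeR), and -0.32 when the DMSO library of CTL cells was left out, -0.89 when that of ZNF521 cells was and -0.71 without the ZNF521 library with SAG, none of which kept the nominal threshold. Its ligand gene COL3A1 had 9351 and 9952 normalized counts in ZNF521 cells with SAG and with DMSO, against 11730 and 19240 in CTL cells treated with SAG and with DMSO, a log2 fold change of -0.65 (SE 0.194, adjusted p = 0.744 from edgeR). That of COL3A1 was -0.28 without the CTL library with DMSO, and -0.66 when the SAG library of ZNF521 cells was left out, where it lost the nominal threshold. ADGRG5 and ADGRG3, the neighbours of ADGRG1 on chromosome 16, were not expressed.

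ADGRG6 (GPR126), a receptor of Schwann cell myelination that binds collagen IV, laminin and the prion protein, ran the other way. It had 77.6 and 83.4 normalized counts in ZNF521 cells with SAG and with DMSO, against 56.4 and 64.3 in CTL cells treated with SAG and with DMSO. The groups did not overlap, and the log2 fold change with ZNF521 was 0.40 (SE 0.238, adjusted p = 0.957 from edgeR). ADGRG2 (GPR64), known from the epididymis, had 43.2 to 56.3 normalized counts, and its groups overlapped in both comparisons.

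ADGRV1, the very long receptor of the ankle links between stereocilia whose loss causes Usher syndrome, was the only receptor with both SAG libraries above both DMSO libraries. It had 862 normalized counts in ZNF521 cells with SAG and 611 with DMSO, and 689 in CTL cells with SAG and 553 with DMSO. SAG-treated cells had 1.41 times the value of DMSO-treated cells among ZNF521 cells (exact 95% interval 1.27 to 1.56) and 1.25 times among CTL cells (1.11 to 1.4). Over both kinds of cells the log2 fold change was 0.41 (SE 0.155, adjusted p = 0.392 from edgeR). It was 0.34 without the CTL library with DMSO (adjusted p = 0.242 from edgeR), and 0.24 when the SAG library of ZNF521 cells was left out, where the nominal threshold was lost (adjusted p = 0.999 from edgeR). With DESeq2 (adjusted p = 1.0) and limma (adjusted p = 0.616) it did not pass the nominal threshold either. ADGRV1 spans chr5:90529344-91164437 (hg38, plus strand) and shares 68 exon bases with LYSMD3 on the other strand. Of 7 tested genes within 500 kb, LYSMD3, CETN3 and ARRDC3 were also higher with SAG at the nominal threshold, against 6.21% of all tested genes. PDZD7, a scaffold protein of its complex at the stereocilia, had a log2 fold change with SAG of -0.37 and did not pass the threshold.

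The BAI receptors are brain receptors, of which ADGRB1 signals to ELMO1 and DOCK1 in the uptake of dying cells. ADGRB1 had raw counts of 19 and 21 in ZNF521 cells with SAG and with DMSO, against 10 and 31 in CTL cells treated with SAG and with DMSO. Both SAG libraries were below both DMSO libraries, among ZNF521 cells by 2 counts before normalization. The log2 fold change with SAG was -0.91 (SE 0.411, adjusted p = 0.433 from edgeR), and it lost the nominal threshold when either CTL library was left out (-0.63 without that with DMSO, -0.72 without that with SAG) and without the ZNF521 library with SAG (-1.22). ADGRB2 had 663 and 727 normalized counts in ZNF521 cells with SAG and with DMSO, against 618 and 912 in CTL cells treated with SAG and with DMSO. Its log2 fold change with SAG was -0.35 (SE 0.165, adjusted p = 0.448 from edgeR). ADGRB3, a receptor of C1QL proteins, had 12 to 20 raw counts, and the exact intervals of its 4 pair ratios all included 1.

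ADGRA2 (GPR124), which with RECK serves WNT7 signals in brain vessels, had 483 and 561 normalized counts in ZNF521 cells with SAG and with DMSO, against 513 and 622 in CTL cells treated with SAG and with DMSO. SAG libraries were below DMSO libraries in both kinds of cells, with ratios of 0.861 among ZNF521 cells and 0.825 among CTL cells, and the log2 fold change was -0.25 (SE 0.155, adjusted p = 0.533 from edgeR). Its exons share 1629 bases with BRF2 on the other strand. ADGRA3, the related orphan receptor, had 431 and 389 normalized counts in ZNF521 cells with SAG and with DMSO, against 489 and 453 in CTL cells treated with SAG and with DMSO, a log2 fold change with ZNF521 of -0.21 (SE 0.158, adjusted p = 0.967 from edgeR). ADGRD1 (GPR133), known from glioblastoma, had 295 to 349 normalized counts in the 4 libraries, and its groups overlapped in both comparisons.

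Deviations of the CTL library with DMSO went with the GC content of the transcripts. The 8 expressed receptors with at least 50% GC lay a median of 0.48 above their own mean in this library on the log2 scale, and the 12 with less than 50% GC a median of 0.02 above it. Over all tested genes with a transcript the medians were 0.13 above the mean for 6806 genes with at least 50% GC and -0.13 for 7795 genes with less. Pearson's r between GC content and this deviation was 0.43 over the 20 receptors and 0.52 over 14601 genes, and all points share the same library. Other libraries also varied with GC content. In the SAG libraries of ZNF521 and CTL cells r was -0.47 and -0.38 over all genes, and -0.19 and -0.41 over the receptors. In ZNF521 cells with DMSO it was 0.08 and -0.21. Deviations are taken from the gene's own mean, so the values of the libraries are tied to each other. ADGRF5 and ADGRF1, with 43.8% and 42.5% GC, lay above the other low-GC receptors in this library. In a fit with an offset for GC content in each library, a setting chosen after the values were seen, the log2 fold change of ADGRF5 with ZNF521 was -1.47 and that of ADGRF1 with SAG -1.32 (adjusted p of 0.101 and 0.169 from edgeR). That of ADGRB1 with SAG was then -0.59, that of ADGRV1 with SAG 0.26 and that of ADGRL4 with ZNF521 0.97, and none of these 3 passed the nominal threshold. For SAG, the offset moved ADGRL1 from -0.53 to -0.31, ADGRB2 from -0.35 to -0.08 and ADGRA2 from -0.25 to -0.01. ADGRL1 still passed the nominal threshold, and ADGRE2 stayed at -0.61.

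**Figure D4:**
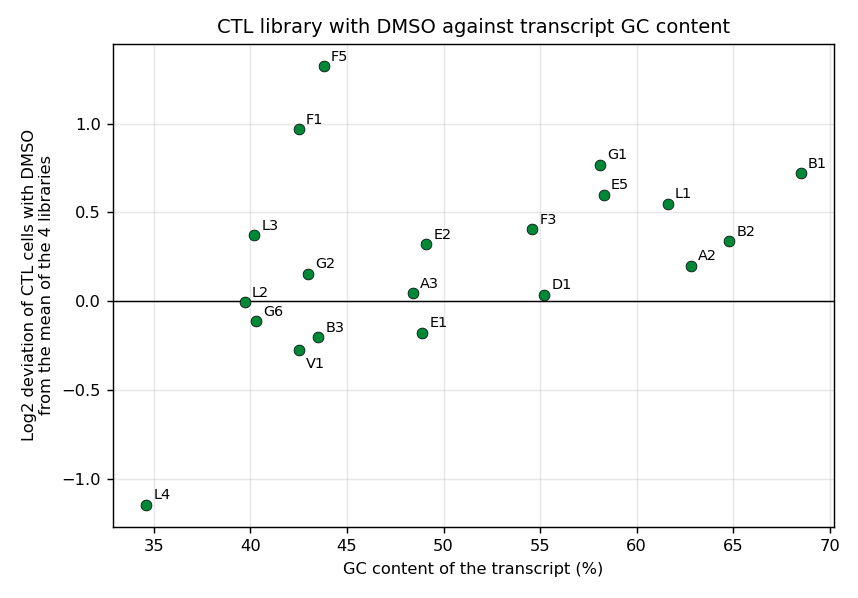
Log2 deviation of the CTL library with DMSO from the mean of the 4 libraries against the GC content of the transcript in percent, with 1 point for each of the 20 expressed adhesion receptors, named without ADGR. Receptors with at least 50% GC lie above 0, with a median of 0.48, while ADGRF5 and ADGRF1 lie highest of all at 43.8% and 42.5% GC.

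The adhesion receptors CELSR1 to CELSR3, which set planar cell polarity and carry another gene name, were lower with SAG at the nominal threshold in 3 of 3 cases, against 5.12% of all tested genes. Their log2 fold changes were -0.54, -0.73 and -0.46 (adjusted p = 0.391 from edgeR for each). CELSR2 had 708 and 816 normalized counts in ZNF521 cells with SAG and with DMSO, against 636 and 1518 in CTL cells treated with SAG and with DMSO, so that the SAG libraries were the lower ones in both kinds of cells. Its value was -0.28 without the CTL library with DMSO (adjusted p = 0.239 from edgeR), and CELSR1 (-0.23) and CELSR3 (-0.26) no longer passed the nominal threshold. The same held for CELSR1 and CELSR3 without either SAG library, with values from -0.45 to -0.61. In the GC offset fit CELSR3 (-0.25) did not pass the nominal threshold, while CELSR1 (-0.31) and CELSR2 (-0.51) did.

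Of 25 extracellular partners 22 were tested, and their median log2 fold changes were -0.25 (ZNF521) and -0.13 (SAG). For ZNF521, 5 were lower at the nominal threshold (FLRT1, TENM2, TENM4, COL3A1 and COL4A2, against 3.11% of all tested genes) and CD55 was higher (1 of 22, against 2.36%). Without the CTL library with DMSO, the values of FLRT1 (-0.42), TENM4 (-0.14) and COL4A2 (-0.05) did not pass this threshold, and that of TENM2 was 0.08 without the ZNF521 library with DMSO. Each of these 6 lost the nominal threshold without at least 1 library, and in the GC offset fit FLRT1 (-0.79), COL4A2 (-0.34) and CD55 (0.30) did not pass it. TENM2, a teneurin that latrophilins bind, had 310.5 normalized counts in ZNF521 cells with SAG and 139.9 with DMSO, and 339 in CTL cells with SAG and 246 with DMSO. Its log2 fold change with SAG was 0.79 (SE 0.196, adjusted p = 0.391 from edgeR). It passed the nominal threshold without each library in turn, with values from 0.39 without the ZNF521 library with DMSO to 1.20 without the CTL library with DMSO, and in the GC offset fit it was 0.87 (adjusted p = 0.00559 from edgeR). PRNP (0.40) was also higher with SAG (2 of 22 with TENM2, against 6.21% of all tested genes) and RTN4RL2, a Nogo receptor homologue, was lower (-0.87, 1 of 22, against 5.12%), with adjusted p of 0.402 and 0.391 from edgeR, and both lost the nominal threshold without the CTL library with SAG (0.27 and -0.56). With the GC offset RTN4RL2 (-0.54) did not pass it either. The other tested partners, FLRT2, TENM1, TENM3, C1QL1, C1QL3, C1QL4, RTN4R, RTN4RL1, TGM2, COL4A1, LAMA2, THY1, RECK and WNT7B, did not pass the nominal threshold in either comparison. Their log2 fold changes ran from -0.57 (WNT7B) to 0.23 (RECK) for ZNF521 and from -0.43 (WNT7B) to 0.31 (C1QL3) for SAG.

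Inside the cell, the 14 tested G proteins and guanine nucleotide exchange factors were at a median of 0.01 (ZNF521) and -0.02 (SAG). GNAO1 was lower in both comparisons at the nominal threshold (-0.62 and -0.66, 1 of 14 in each, against 3.11% and 5.12% of all tested genes), and without the CTL library with DMSO its values were 0.08 and -0.02. In the GC offset fit the values of GNAO1 were -0.57 and -0.56, both past the nominal threshold. GNAI1 (0.57) and GNAI3 (0.46), inhibitory G protein subunits, were higher with SAG at this threshold (2 of 14, against 6.21%), with values of 0.24 and 0.20 without the CTL library with DMSO, where GNAI1 no longer passed, and both lost the threshold without either SAG library and in the GC offset fit (0.28 and 0.19). The other G protein subunits, GNA12, GNA13, GNAI2, GNAQ, GNA11, GNAS and GNAZ, did not pass it in either comparison. Of 16 intracellular and membrane partners, among them ELMO1, DOCK1, BAIAP2, PARD3, TIAM1, DLG1 and DLG4, 15 were tested, and 0 passed the nominal or the adjusted threshold from edgeR in either comparison.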

How the data were processed

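DAOY libraries (4) were grouped by the titles of the samples. Per the submitters' processing notes the authors aligned reads to hg38 with STAR 2.7.0e, and the deposited raw table holds whole counts per gene. The deposited normalized table holds signal values, which are the counts that the authors divided by 1 DESeq2 size factor per library (0.887 to 1.19). It lacks 503 genes with a total count of 1. The members and gene lists were chosen with earlier results of these data known.

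Genes needed 10 counts or more in 2 or more libraries, and the 14970 that passed were tested with edgeR 4.0.16 in R 4.3.3 (TMM factors, glmQLFit and glmQLFTest) with ZNF521 and SAG as additive terms, which leaves 1 residual degree of freedom and a prior of 11.7. With 1 library per condition, this residual is the departure from additive effects, and it is moderated over all tested genes. P-values therefore do not measure variation between replicates. Pair ratios have exact Clopper-Pearson 95% intervals for counting error only, which leave out library noise. Alternatives were RLE factors, library size, no count filter, DESeq2 1.42.0, a minimum mean count of 50, limma 3.58.1 on log2 normalized counts of at least 1, no block, each library left out, and, added after the values were seen, a GC offset. Every expressed member was named, and partners where they passed the nominal threshold or bind an expressed member. Another that this rule would name is not reported here. Positions, lengths and GC content came from GENCODE 44, where 97.2% of genes had a transcript, and promoters from RefSeq, which had a window for 17 of 27 members. The fits were tested on simulated data. Figures were drawn with matplotlib 3.10.9.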

Additional observations from a re-analysis of the deposited data

Results flagged for a closer look

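ADGRL2 was the one receptor whose ratio of ZNF521 to CTL cells lay on opposite sides of 1 in the 2 treatments, with both counting intervals leaving out 1. It was 0.931 in DMSO (exact 95% interval 0.874 to 0.992) and 1.1 in SAG (1.04 to 1.17). The difference between the treatments was not tested, since 1 library per condition leaves no residual degree of freedom for it.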

How the results depend on the processing

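Each condition has 1 library, and the study used a paired t test. The additive fit is paired in the same way, as it sets libraries of the same treatment or the same cells against each other. The fit with no block placed 4 receptors (ZNF521) and 5 (SAG) past the nominal threshold. With 1 library left out, the fit has 1 factor only, and the other factor is mixed into its fold change. Its lone library is assumed to vary like the others. Such fits gave 0 to 5 receptors past the adjusted threshold for ZNF521 and 0 to 9 for SAG, 0 to 8 and 1 to 11 past the nominal one, and a median log2 fold change of -0.328 to 0.016 for ZNF521. Past the nominal threshold for ZNF521 there were 2 receptors with a minimum mean count of 50 and 1 with DESeq2. For SAG there were 8 without a count filter, 3 with that minimum, 1 with DESeq2 and 3 with the GC offset. Past the adjusted threshold for ZNF521 there was 1 without a count filter. Over all genes, the numbers past the adjusted threshold moved as well: for ZNF521 from 1 to 100 without a filter, 41 with the GC offset and 2341 without the CTL library with SAG, and for SAG from 6 to 223 without a filter, 22 with the GC offset, 4584 without the DMSO library of ZNF521 cells and 67 without that of CTL cells. No receptor was called with the opposite sign in any setting. RLE factors and library size gave 5 receptors for ZNF521 and 6 for SAG at the nominal threshold. The cause of these shifts was not tested. Depth limited ADGRF3 (4 to 13 counts) and ADGRL4 (4 to 18 counts), with pair ratios whose counting intervals reached 11.2 and 14.9.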
